A study of Homo sapiens with 12 samples.

Results

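The bone morphogenetic protein (BMP) ligands BMP2, BMP4 and BMP7 and 6 genes known to respond to them, ID1, ID2, ID3, SMAD6, SMAD7 and BAMBI, were described in 4 lines of the HCT116 colorectal cancer cell line. These 9 genes were taken by symbol from a raw count table of 28395 genes, and each of the 9 was among the 15853 genes with a CPM (read counts scaled to library size) of 0.5 or more in at least 3 libraries. They were selected on results measured in these same libraries, since the rule that chose them names a fall of BMP4 and a rise of BMP2, without saying in which line. The levels and fold changes of BMP2 and BMP4 are therefore given as a description with no test, and tests are given for the other 7 genes.

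BMPs are secreted ligands of the TGF-beta superfamily that bind pairs of type I and type II receptor kinases. The receptors phosphorylate SMAD1, SMAD5 and SMAD9 (also called SMAD8), which join SMAD4 and activate target genes in the nucleus. Among the best known direct targets are the ID genes, whose products lack a DNA-binding domain and sequester basic helix-loop-helix factors, and a set of inhibitors that feed back on the pathway. In the colon, BMP activity is high towards the crypt surface and low at the crypt base, where stromal antagonists are made, and it is known for opposing stem cell self-renewal.

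HCT116 is a poorly differentiated human colorectal cancer line, and each of its 4 derivatives was sequenced in 3 libraries, 12 in all. HCT116 EV cells carry the empty expression plasmid, and HCT116 EHF cells carry a plasmid for EHF, an epithelial ETS family transcription factor; both were obtained as geneticin-resistant clones. HCT116 CDX1 cells carry a retrovirus for CDX1, a homeobox factor of the intestine, and were sorted for the GFP it encodes. HCT116 EHF+CDX1 cells were made from the HCT116 CDX1 line by transfection with the EHF plasmid and a further selection of resistant clones, so in CDX1 versus EV the factor cannot be told apart from its vector and selection. EHF versus EV compares separately selected clones, so EHF cannot be told apart there from differences between clones. EHF+CDX1 versus CDX1 likewise includes a second round of selection, with resistant clones, and EHF+CDX1 versus EHF also sets lines apart by retrovirus, GFP sort and clones. The cells were grown in DMEM-F12 with fetal calf serum, and polyA RNA was measured. The labels do not say whether the 3 libraries of a line came from separate cultures, and the authors' legend to their RNA clustering names fewer biological replicates than 3. The p-values therefore measure the spread between these libraries, which may be technical. In bulk RNA, fewer cells with a transcript and less transcript per cell cannot be told apart.

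The libraries held 13523007 to 74186741 counts, and 3 counts, taken as the limit of detection, corresponded to 0.0375 to 0.207 CPM. The mean level of EHF was 19312 CPM in the EHF line and 18708 CPM in the EHF+CDX1 line, against 299 CPM in EV and 12.3 CPM in CDX1 (n = 3). The CDX1 gene had at most 4 reads in any EV or EHF library, and its mean was 525 CPM in the CDX1 line and 5419 CPM in the EHF+CDX1 line, so the lines labelled CDX1 differed in the level of CDX1 itself. EV library 3 stood apart from EV libraries 1 and 2, with a chi-square of 288 to 317 per degree of freedom against 3.19 to 46.1 in all other pairs within a line. The 6 epithelial markers EPCAM, CDH1, KRT8, KRT18, KRT19 and CLDN7 summed to 4795 to 5599 CPM in EV, 4399 to 4538 in EHF, 2544 to 3087 in CDX1 and 4728 to 4969.8 in EHF+CDX1, and in CDX1 versus EV KRT8, KRT18 and KRT19 fell while EPCAM rose (log2 fold change 0.89, SE 0.17, adjusted p = 0.0314). Of 8 stromal markers, 6 were under the count filter, and the sum was 168 to 220 CPM in CDX1 against 34.5 to 76.7 CPM in the other lines, most of it COL1A1. Of 4 immune markers, CD68 alone passed the filter and reached 81.3 CPM in CDX1, while of 3 endothelial markers VWF alone passed. The part of these markers in the results for HCT116 CDX1 was not tested.

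RefSeq promoter windows (GRCh38.p14) were matched for 7 of the 9 genes, and not for BMP2 and BMP7. In the 250 bases before the start, both strands were searched for the ETS forms GGAAGT and CCGGAA, the CDX form TTTATG, and the SMAD elements GTCTAGAC and GGCGCC. The windows of BMP4, BAMBI and SMAD6 are shown because these 3, among the 7 genes with a window, gave the largest log2 fold changes from EV and because each window held a SMAD element, whose letters are in capitals together with the ETS form in BMP4. They are at chr14:53955051-53955300 (minus strand, the first of 3 listed starts of BMP4), chr10:28677271-28677520 (plus strand) and chr15:66701986-66702235 (plus strand).
BMP4: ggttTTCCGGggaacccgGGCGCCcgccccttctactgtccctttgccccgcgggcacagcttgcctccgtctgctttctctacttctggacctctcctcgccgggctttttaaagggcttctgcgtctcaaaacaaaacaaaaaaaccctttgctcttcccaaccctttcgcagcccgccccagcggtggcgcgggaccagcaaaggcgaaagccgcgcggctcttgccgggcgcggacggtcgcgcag
BAMBI: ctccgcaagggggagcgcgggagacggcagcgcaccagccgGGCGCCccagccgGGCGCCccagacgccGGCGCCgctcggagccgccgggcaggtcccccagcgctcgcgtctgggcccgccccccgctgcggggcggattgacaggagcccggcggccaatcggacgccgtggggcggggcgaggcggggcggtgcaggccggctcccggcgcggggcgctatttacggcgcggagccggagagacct
SMAD6: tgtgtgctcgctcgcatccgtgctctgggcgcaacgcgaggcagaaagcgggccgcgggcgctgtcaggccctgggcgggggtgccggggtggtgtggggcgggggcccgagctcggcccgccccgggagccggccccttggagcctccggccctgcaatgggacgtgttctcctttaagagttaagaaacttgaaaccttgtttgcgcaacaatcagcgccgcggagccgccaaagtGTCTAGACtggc
GGCGCC occurred at 1 position in the BMP4 window and at 3 positions in the BAMBI window, and was held by 16.4% of all 35116 windows. The palindrome GTCTAGAC began 12 bases before the start of SMAD6 and was held by 0.182% of all windows. The BMP4 window also held CCGGAA on the reverse strand, a form present in 14.5% of windows. A second listed start of BMP4 had GGAAGT (19.5% of windows), and one listed start of SMAD7 had CCGGAA at 2 positions. TTTATG (9.64% of windows) was in none of the 7 genes' windows, and the windows of ID1, ID2 and ID3 held none of the 5 forms. A match describes letters in a window and not a bound site.

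BMP4 (Entrez 652, chr14:53949736-53956891, minus strand), the ligand with the most transcript in these cells, was lower in each of the 3 lines than in EV. Its normalised counts in the 3 EV libraries were 739.5, 748 and 859 CPM (mean 782 ± 66.8 SD, n = 3). They were 39.2, 39.9 and 36.5 CPM in EHF, 64.2, 74.4 and 70.7 CPM in CDX1, and 75.6, 83.5 and 86.0 CPM in EHF+CDX1. No library of any line overlapped those of another line, and the order from high to low was EV, EHF+CDX1, CDX1 and EHF. BMP4 was 20.3-fold lower in EHF than in EV (log2 fold change -4.34, SE 0.11), 11.2-fold lower in CDX1 (-3.49, SE 0.11) and 9.58-fold lower in EHF+CDX1 (-3.26, SE 0.11). Between the lines with a transgene the differences were smaller, at 2.12-fold in EHF+CDX1 over EHF and 1.17-fold in EHF+CDX1 over CDX1.

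BMP2 (Entrez 650, chr20:6767686-6780246), a close relative of BMP4 that uses the same receptors, was found almost only in the lines with CDX1. It had 0, 1 and 1 reads in the EV libraries and 0 reads in each EHF library. In CDX1 it had 345, 159 and 228 reads (7.56, 4.02 and 5.87 CPM; mean 5.81 ± 1.77 SD, n = 3), and in EHF+CDX1 61, 12 and 8 reads (1.07, 0.228 and 0.553 CPM; mean 0.615 ± 0.422 SD, n = 3). Every CDX1 library was above every EHF+CDX1 library, and every EHF+CDX1 library was above every EV and EHF library. Against the highest detection limit of an EHF library, 0.160 CPM, BMP2 was at least 36.4-fold higher in CDX1 and at least 3.86-fold higher in EHF+CDX1. The ratio of pooled reads to EV, which rests on 2 EV reads, was 291 for CDX1 (exact 95% interval 80.3 to 2409.5) and 32.1 for EHF+CDX1 (8.62 to 270.0). These intervals cover counting error in the pooled reads only, and not the spread between libraries. They describe how few EV reads there were and are not a test of the rise for which BMP2 was chosen. BMP2 was 9.19-fold lower in EHF+CDX1 than in CDX1 (log2 fold change -3.20, SE 0.50), and this value was -4.12 without EHF+CDX1 library 1, whose 61 reads were most of the reads of that line.

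BMP7 (Entrez 655, chr20:57168753-57266641), a ligand of the BMP5 to BMP8 branch, had a pattern unlike that of BMP4. It was at 15.4, 12.6 and 17.4 CPM in EV, at 23.6, 23.9 and 22.8 CPM in EHF, at 7.34, 6.49 and 7.15 CPM in CDX1, and at 27.7, 26.4 and 26.3 CPM in EHF+CDX1. The libraries of the 4 lines did not overlap. BMP7 fell 2.17-fold in CDX1 versus EV (log2 fold change -1.12, SE 0.12, adjusted p = 3.50e-04) and rose 3.83-fold in EHF+CDX1 versus CDX1 (1.94, SE 0.12, adjusted p = 6.94e-07). The log2 fold changes of 0.62 in EHF (SE 0.12, adjusted p = 0.729) and 0.82 in EHF+CDX1 versus EV (SE 0.12, adjusted p = 0.0797) did not pass the test against a 1.5-fold change. The second passed without EV library 3 (0.94, adjusted p = 0.00234), and the fall in CDX1 did not pass on the deposited log2 RPKM values (-0.82, adjusted p = 0.0907) or with limma voom (-0.85, adjusted p = 0.0652). The antisense gene BMP7-AS1, which overlaps BMP7, had 2 reads over all 12 libraries. Uncharacterised loci overlap BMP4, BMP7 and ID3 in the annotation, and since the strand setting of the counting was not given, reads from both cannot be told apart.

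**Figure D1:**
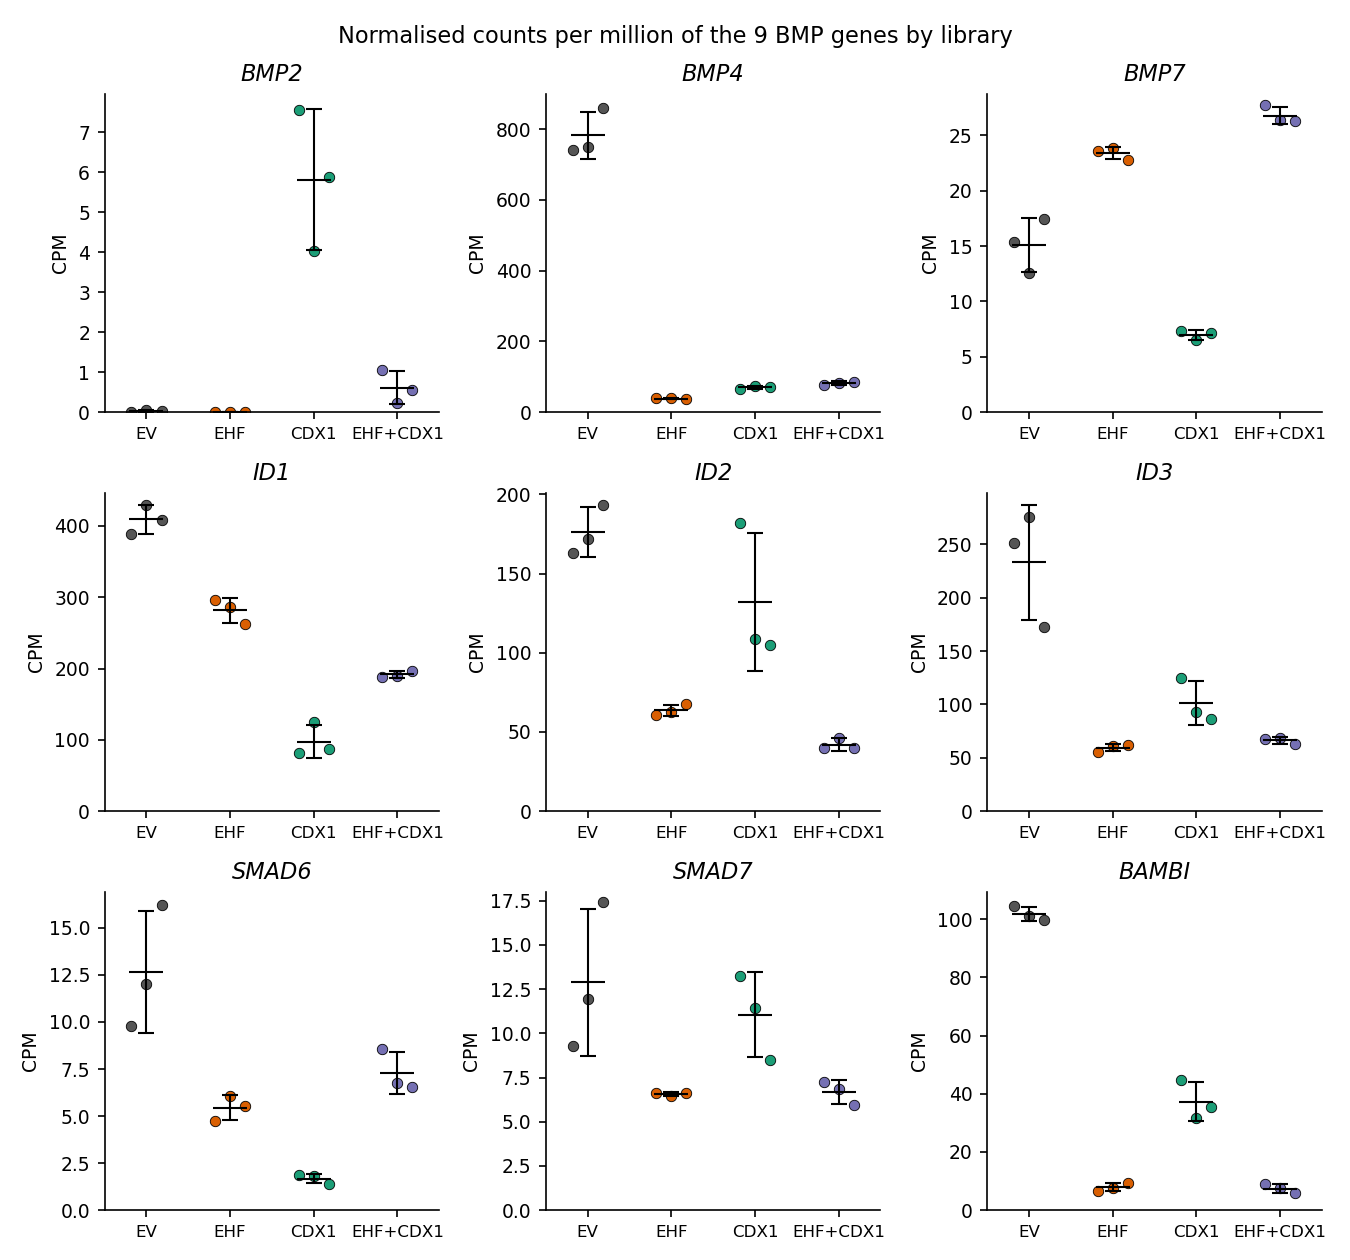
Normalised CPM (vertical axes, linear, each from 0) of the 9 genes in the 4 lines; dots are the 3 libraries of a line and bars are the mean ± SD. BMP4 and BAMBI are highest in EV, BMP2 is highest in CDX1, and BMP7 and SMAD6 are lowest in CDX1.

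Levels of different ligands were compared per length, on the log2 RPKM values that the authors deposited. In EV the mean log2 RPKM was 8.54 for BMP4, 1.88 for BMP7 and -5.53 for BMP2, and BMP4 ranked 105 of 15853 genes. In EHF the same values were 4.18, 2.51 and -7.45, in CDX1 they were 4.85, 1.06 and 0.94, and in EHF+CDX1 they were 5.31, 2.72 and -3.61. BMP4 thus remained the highest of the 3 in every line, at rank 3480 in EHF, 2251 in CDX1 and 1629 in EHF+CDX1, while BMP7 and BMP2 in CDX1 differed by less than the SD of BMP2 (0.46). Summed over the 6 BMP ligands that passed the filter (BMP2, BMP4, BMP6, BMP7, BMP8A and BMP8B), the RPKM was 386 ± 35.8 in EV, 31.1 ± 0.969 in EHF, 37.7 ± 1.72 in CDX1 and 51.7 ± 2.03 in EHF+CDX1 (mean ± SD, n = 3). The share of BMP4 in this sum was 96.7% ± 0.505 in EV, 58.4% ± 1.19 in EHF, 76.4% ± 3.06 in CDX1 and 77.1% ± 2.52 in EHF+CDX1. BMP7 made up 0.962% of the sum in EV and 18.3% in EHF, and BMP2 made up 5.31% in CDX1 and 0.266% in EHF+CDX1.

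**Figure D2:**
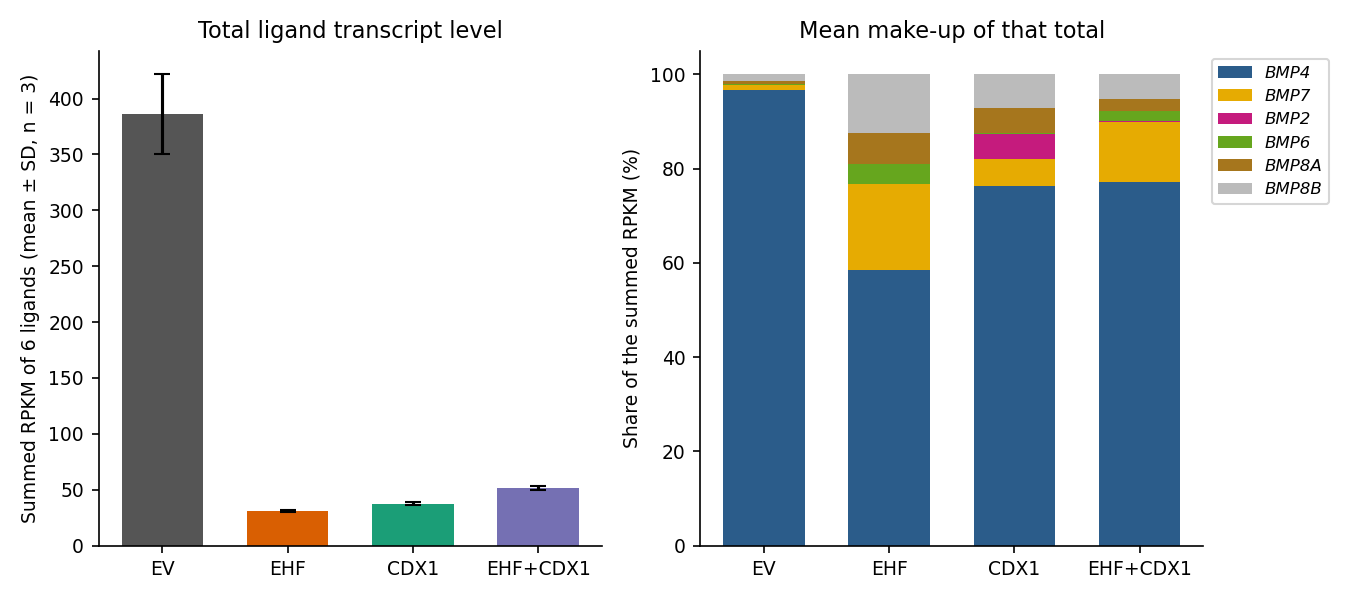
Left, summed RPKM of 6 BMP ligands in each line (bars, mean ± SD, n = 3); right, the mean share of each ligand in that sum in percent. The sum is 386 RPKM in EV and 31.1 to 51.7 RPKM in the other lines, and BMP4 is the largest share in all 4.

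Of the 7 genes with a test, 4 fell and 0 rose in EHF versus EV, where 2.64% of all 15853 genes fell and 5.67% rose. In CDX1 versus EV 5 fell and 0 rose, where 23.2% of all genes fell and 21.3% rose. In EHF+CDX1 versus EV 4 fell and 0 rose, where 3.1% of all genes fell and 7.3% rose. The share called among all genes was thus several times higher in CDX1 than in the other comparisons with EV, and the 5 genes called in CDX1 stand against that background. At an unadjusted p under 0.05 against a 1.5-fold change the 3 counts were 5, 5 and 6. No share over all genes is given for these, so they cannot be read as a result about the 7 genes. DESeq2 called 3, 5 and 4 of the 7, each a fall, where it called 1061, 5864 and 1361 of all genes. The median log2 fold change of the 7 genes was -1.21 in EHF, -1.20 in CDX1 and -1.09 in EHF+CDX1, against -0.04, -0.03 and -0.03 over all genes tested. These 3 comparisons share the EV libraries, and ID3 and BAMBI fell in each of them.

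ID1 (Entrez 3397, chr20:31605289-31606510, plus strand), an inhibitor of basic helix-loop-helix factors and a direct BMP target, was lowest in CDX1. It was at 389, 429 and 409 CPM in EV, 296, 287 and 262 CPM in EHF, 81.4, 125 and 87.1 CPM in CDX1, and 189, 189.8 and 197 CPM in EHF+CDX1. The 4 lines did not overlap and were ordered EV, EHF, EHF+CDX1 and CDX1. ID1 fell 4.19-fold in CDX1 versus EV (log2 fold change -2.07, SE 0.14, adjusted p = 9.58e-07) and 2.13-fold in EHF+CDX1 versus EV (-1.09, SE 0.14, adjusted p = 0.00538). The value of -0.54 in EHF (SE 0.14, adjusted p = 1) did not pass. On the deposited log2 RPKM values the adjusted p of EHF+CDX1 versus EV was 0.0522.

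ID2 (Entrez 3398, chr2:8682056-8684461, plus strand), another member of the family, was lower in the lines that carry EHF. Its libraries were at 163, 172 and 193 CPM in EV, 60.9, 62.4 and 67.7 CPM in EHF, 182, 109 and 105 CPM in CDX1, and 39.6, 46.5 and 39.9 CPM in EHF+CDX1. CDX1 overlapped EV through CDX1 library 1, and every EHF and EHF+CDX1 library was below both. ID2 fell 2.77-fold in EHF versus EV (log2 fold change -1.47, SE 0.19, adjusted p = 0.00148) and 4.19-fold in EHF+CDX1 versus EV (-2.07, SE 0.19, adjusted p = 4.44e-05). In CDX1 versus EV the value was -0.42 (SE 0.18, adjusted p = 0.779), and it was -0.72 without CDX1 library 1.

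ID3 (Entrez 3399, chr1:23557926-23559501, minus strand), the third ID gene, was lower in all 3 lines. It was at 251, 276 and 172 CPM in EV, with library 3 the lowest, and at 55.4, 60.9 and 61.9 CPM in EHF, 124, 93.3 and 86.2 CPM in CDX1, and 68.1, 68.3 and 62.9 CPM in EHF+CDX1. The lines did not overlap. ID3 fell 3.92-fold in EHF (log2 fold change -1.97, SE 0.18, adjusted p = 5.72e-05), 2.30-fold in CDX1 (-1.20, SE 0.17, adjusted p = 0.00143) and 3.50-fold in EHF+CDX1 (-1.81, SE 0.18, adjusted p = 9.91e-05) versus EV. Without EV library 3, the lowest in EV, these calls were kept. In log2 RPKM the order of the 3 ID genes was ID1 (8.45), ID3 (7.59) and ID2 (7.05) in EV, ID1 (7.96), ID3 (5.66) and ID2 (5.61) in EHF, and ID1 (7.41), ID3 (5.82) and ID2 (4.97) in EHF+CDX1. In CDX1 the means of the 3 lay between 6.08 and 6.31, closer together than the SD of ID1 (0.31).

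BAMBI (Entrez 25805, chr10:28677521-28682932, plus strand), a transmembrane pseudoreceptor that lacks a kinase domain and dampens BMP and TGF-beta signals, changed the most of the 7 genes in both lines with EHF. It was at 105, 101 and 99.7 CPM in EV, 6.76, 7.65 and 9.41 CPM in EHF, 44.8, 31.6 and 35.6 CPM in CDX1, and 8.84, 7.53 and 5.94 CPM in EHF+CDX1. EHF and EHF+CDX1 overlapped, CDX1 lay between them and EV, and EV was above all. BAMBI fell 12.7-fold in EHF (log2 fold change -3.67, SE 0.18, adjusted p = 1.32e-07), 2.73-fold in CDX1 (-1.45, SE 0.16, adjusted p = 1.14e-04) and 13.5-fold in EHF+CDX1 (-3.75, SE 0.18, adjusted p = 1.01e-07) versus EV. Among the genes that fell, its fold change ranked 52 of 418 in EHF and 26 of 492 in EHF+CDX1. Per length it was at 5.93 log2 RPKM in EV and at 1.96 in EHF+CDX1.

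SMAD6 (Entrez 4091, chr15:66702236-66782849, plus strand), an inhibitory SMAD that acts mainly on BMP signals, was lowest in CDX1. It was at 9.78, 12.02 and 16.2 CPM in EV, 4.73, 6.07 and 5.55 CPM in EHF, 1.86, 1.79 and 1.39 CPM in CDX1, and 8.56, 6.76 and 6.57 CPM in EHF+CDX1. The lines did not overlap, with CDX1 the lowest and EV the highest. SMAD6 fell 7.54-fold in CDX1 versus EV (log2 fold change -2.91, SE 0.22, adjusted p = 9.18e-07). It fell 2.32-fold in EHF versus EV (-1.21, SE 0.20, adjusted p = 0.0160), a call that was lost with DESeq2 (adjusted p = 0.0512), with the EV and EHF libraries fitted alone (0.0857), without EHF library 1 (0.0685) and without EHF library 3 (0.0524). In EHF+CDX1 versus EV the value was -0.79 (SE 0.20, adjusted p = 0.312).

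SMAD7 (Entrez 4092, chr18:48919853-48950965, minus strand), the inhibitory SMAD of both the BMP and the TGF-beta arm, passed the test in no comparison. It was at 9.30, 11.9 and 17.4 CPM in EV, 6.65, 6.45 and 6.64 CPM in EHF, 13.2, 11.4 and 8.46 CPM in CDX1, and 7.27, 6.83 and 5.94 CPM in EHF+CDX1. EV overlapped CDX1 and EHF overlapped EHF+CDX1, and both lines with EHF were below both lines without it. The log2 fold changes versus EV were -0.98 in EHF (SE 0.22, adjusted p = 0.128), -0.23 in CDX1 (SE 0.22, adjusted p = 0.985) and -0.95 in EHF+CDX1 (SE 0.22, adjusted p = 0.140). Without EV library 1, the lowest of EV, SMAD7 passed in EHF (-1.17, adjusted p = 0.0269) and in EHF+CDX1 (-1.13, adjusted p = 0.0292).

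**Figure D3:**
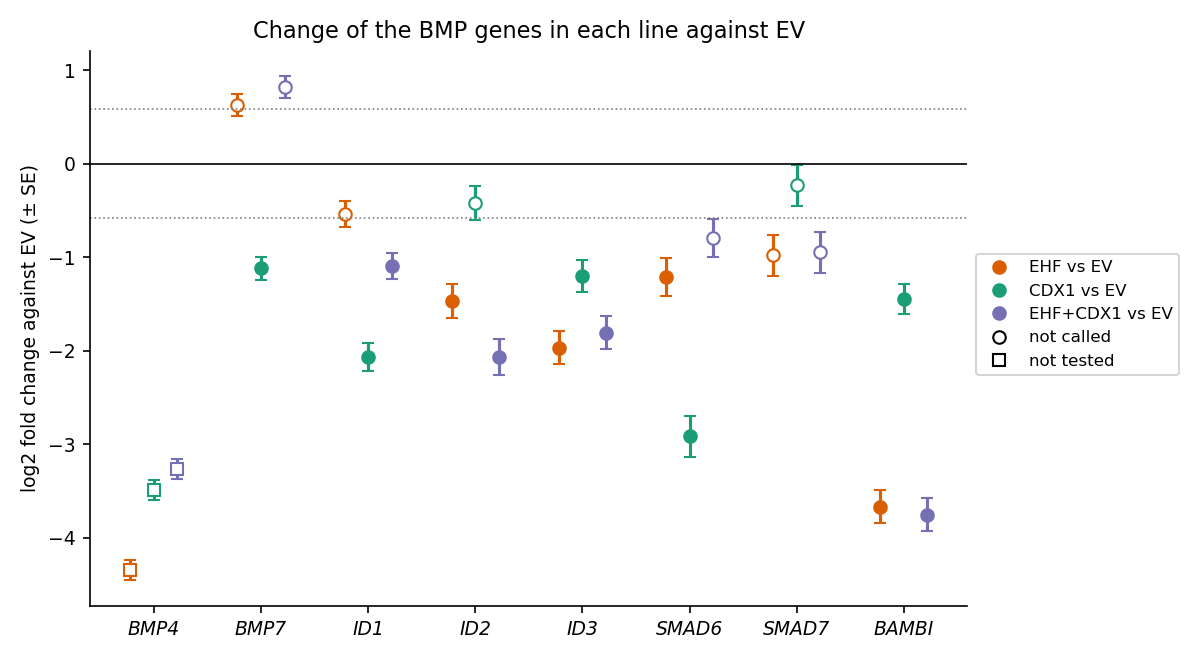
Log2 fold change against EV (vertical axis, ± SE) of 8 genes in EHF, CDX1 and EHF+CDX1; filled circles passed the test against a 1.5-fold change, open circles did not, squares (BMP4) were not tested, and dotted lines mark 1.5-fold. BMP2 is left out because its EV level rests on 2 reads; BAMBI in EHF and EHF+CDX1 lies near -3.67 and -3.75, and BMP7 is the only gene above 0.

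Adding CDX1 to EHF was addressed by EHF+CDX1 versus EHF, in which 0 of the 7 genes passed the test of edgeR, where 2.48% of all genes rose and 0.183% fell. The added CDX1 cannot be told apart here from the retrovirus, the sort and the separately selected clones. At an unadjusted p under 0.05 against a 1.5-fold change the count was also 0, and against no change it was 2. DESeq2 and limma voom also called 0, and the edgeR test against no change called 1, ID1 (log2 fold change -0.55, SE 0.14, adjusted p = 0.0276). Over all genes DESeq2 called 390, limma voom 426 and the test against no change 1530. No share is given for the unadjusted counts, which therefore have no background to be read against. The 95% intervals of the log2 fold change were -0.42 to 0.25 for BAMBI, -0.17 to 0.50 for ID3, -0.03 to 0.42 for BMP7, -0.40 to 0.47 for SMAD7, 0.02 to 0.81 for SMAD6, -0.83 to -0.28 for ID1 and -0.96 to -0.24 for ID2. These intervals use a normal approximation and are narrower than the F test implies. Those of ID1, ID2 and SMAD6 do not include 0, although only 2 of the 7 genes had an unadjusted p under 0.05 against no change. The test against a 1.5-fold change gave an adjusted p of 1 for each of ID1, ID2 and SMAD6.

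Adding EHF to CDX1 was addressed by EHF+CDX1 versus CDX1, in which 3 of the 7 genes rose and 2 fell, where 22.2% of all genes rose and 18.7% fell. SMAD6 rose 4.35-fold (log2 fold change 2.12, SE 0.22, adjusted p = 2.58e-05), BMP7 rose as given above, and ID1 rose 1.96-fold (0.97, SE 0.14, adjusted p = 0.00644). BAMBI fell 4.94-fold (-2.30, SE 0.17, adjusted p = 1.83e-06) and ID2 fell 3.14-fold (-1.65, SE 0.19, adjusted p = 1.11e-04). ID3 at -0.61 (SE 0.17, adjusted p = 0.379) and SMAD7 at -0.72 (SE 0.22, adjusted p = 0.226) did not pass. The 7 genes thus moved in both directions here, and the median of their log2 fold changes was -0.61 against 0.04 over all genes.

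Whether the difference between lines with and without the EHF plasmid depended on the background was tested as the difference between EHF+CDX1 versus CDX1 and EHF versus EV. The difference was called for 5 of the 7 genes, each in the direction of a more positive value in the CDX1 background, where 20.2% of all genes were called in that direction and 18% in the other. It was 3.33 on the log2 scale for SMAD6 (SE 0.30, adjusted p = 6.92e-06), which fell with EHF versus EV and rose in EHF+CDX1 versus CDX1. For ID1 it was 1.51 (SE 0.20, adjusted p = 4.71e-04) and for BMP7 1.31 (SE 0.17, adjusted p = 6.40e-04). BAMBI (1.36, SE 0.23, adjusted p = 0.00348) and ID3 (1.36, SE 0.24, adjusted p = 0.00415) were lower with EHF in both backgrounds, by less on top of CDX1. The difference was -0.18 for ID2 (SE 0.26, 95% interval -0.69 to 0.32, adjusted p = 0.950) and 0.27 for SMAD7 (SE 0.31, 95% interval -0.34 to 0.88, adjusted p = 0.847). The same contrast equals EHF+CDX1 versus EHF minus CDX1 versus EV on the log2 scale. The 5 genes called are the 5 that fell in CDX1 versus EV, while 0 of the 7 were called in EHF+CDX1 versus EHF. These 5 calls are therefore not separate from the falls in CDX1 versus EV. The backgrounds differ in CDX1, in vector and in EHF itself, whose mean was 299 CPM in EV and 12.3 CPM in CDX1. The level of CDX1 was 5419 CPM in EHF+CDX1 against 525 CPM in CDX1, and the lines with the EHF plasmid are separately selected clones. These cannot be told apart in this contrast. Without normalisation factors beyond library size the median of all genes moved to -0.37 in CDX1 versus EV and 0.39 in EHF+CDX1 versus CDX1, and the split of all genes called higher and lower moved from 3379 and 3683 to 2264 and 5109 in the first, from 3523 and 2962 to 5067 and 1759 in the second, and from 3195 and 2847 to 4419 and 1963 in the test of the difference. The 5 member calls in each of these were kept under that scaling.

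**Figure D4:**
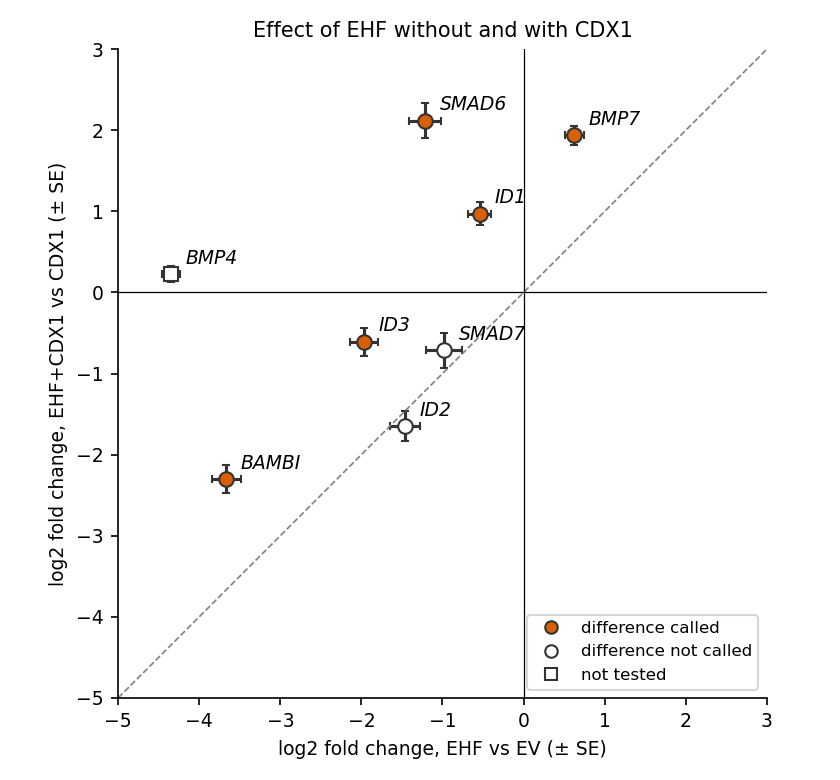
Log2 fold change of EHF+CDX1 versus CDX1 (vertical axis) against that of EHF versus EV (horizontal axis) for 8 genes, both ± SE; filled circles are genes whose difference between the axes was called, the square (BMP4) was not tested, and the dashed line marks equal values. SMAD6 lies at -1.21 and 2.12, while ID2 and SMAD7 lie close to the line.

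The rest of the pathway was read from 8 lists with 76 genes, 57 of which passed the count filter. Of the 57, 7 rose and 2 fell in EHF versus EV, where 5.67% of all genes rose and 2.64% fell. In CDX1 versus EV 17 rose and 13 fell, against 21.3% and 23.2% of all genes. In EHF+CDX1 versus EV 9 rose and 4 fell, against 7.3% and 3.1%. In EHF+CDX1 versus EHF 4 rose, against 2.48%, and in EHF+CDX1 versus CDX1 9 rose and 14 fell, against 22.2% and 18.7%. The median log2 fold change of the 57 was -0.10, 0.34 and -0.17 in the 3 comparisons with EV, beside -0.04, -0.03 and -0.03 over all genes tested.

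Among other BMP-type ligands 3 of 10 passed the filter. BMP6, a ligand of the BMP7 branch, was at 2.89, 3.50 and 2.52 CPM in EV and at 0.175, 0.253 and 0.103 CPM in CDX1, and it fell there (log2 fold change -4.03, SE 0.28, adjusted p = 3.31e-07). It was at 4.26 to 5.06 CPM in EHF and 3.46 to 3.90 CPM in EHF+CDX1, so that BMP6 and BMP7 were both lowest in CDX1. BMP8B fell in CDX1 versus EV (-1.13, SE 0.19, adjusted p = 0.00517), a call lost with limma voom and on the deposited log2 RPKM values (adjusted p up to 0.172).

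Of 9 receptors and co-receptors that passed the filter, 2 rose and 2 fell in CDX1 versus EV, shares close to the 21.3% and 23.2% of all genes. The log2 fold changes of the main receptors in EHF, CDX1 and EHF+CDX1 versus EV were -0.40, -0.56 and -0.64 for BMPR1A and 0.28, 0.76 and 0.12 for BMPR2, and these did not pass. ACVRL1, a type I receptor best known from endothelium, fell in CDX1 from 1.94, 1.52 and 4.78 CPM to 0.613, 0.404 and 0.334 CPM (log2 fold change -2.63, SE 0.42, adjusted p = 4.28e-04), and the type II receptor ACVR2A rose (1.60, SE 0.31, adjusted p = 0.00349). Without EV library 3 these values were -1.92 for ACVRL1 and 2.28 for ACVR2A, and ACVR2A then also passed in EHF (1.44) and EHF+CDX1 (1.38) versus EV. The co-receptor ENG was at 9.20 to 12.4 CPM in EHF+CDX1 and at 1.55 to 6.19 CPM in EV, and its call against EV (1.53, SE 0.36, adjusted p = 0.0415) was lost in 15 of 21 other settings. The log2 fold changes of SMAD1, SMAD5 and SMAD4 versus EV lay between -0.46 and 0.22 and did not pass, and SMAD9, the least abundant of the 4 transducers, fell in CDX1 (-1.43, SE 0.21, adjusted p = 8.38e-04).

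Of 16 secreted antagonists and binding proteins, 8 passed the filter. Versus EV, 2 rose and 0 fell in EHF, 3 rose (NBL1, NOG and FST) and 1 fell in CDX1, and 1 rose and 0 fell in EHF+CDX1. The shares of all genes that rose and fell were 5.67% and 2.64% in EHF, 21.3% and 23.2% in CDX1, and 7.3% and 3.1% in EHF+CDX1. GREM1, which binds and blocks BMP2 and BMP4, had 0 reads in each EV library and 164, 164 and 55 reads in EHF+CDX1, a mean of 3.26 CPM and at least 23.0-fold above the highest detection limit in EV. In EHF it had 1, 7 and 20 reads and in CDX1 5, 1 and 0 reads, and a call in EHF versus EV that rests on these few reads was lost in 13 of 21 other settings. FST, an activin and BMP binding protein, was at 13 to 33 reads in CDX1 against 0, 0 and 4 reads in EV and rose there (adjusted p = 0.00140). FST also rose in EHF versus EV, with 5 to 37 reads in EHF, a call kept in 16 of 21 other settings. CHRD, the antagonist chordin, fell in CDX1 versus EV (-2.01, SE 0.42, adjusted p = 0.00410), and its EV libraries ranged from 13.3 to 52.9 CPM with library 3 the highest. Without EV library 3 its log2 fold change was -1.06, and the call was lost with limma voom and on the deposited log2 RPKM values (adjusted p up to 0.104).

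Inside the cell, 11 of 11 listed inhibitors of the SMAD pathway passed the filter, of which 5 rose and 1 fell in CDX1 versus EV, where 21.3% of all genes rose and 23.2% fell. SMURF2, not among the genes with the largest change in this list, rose in each line versus EV. Its mean was 93.0 CPM in EV, 251 CPM in EHF, 193 CPM in CDX1 and 258 CPM in EHF+CDX1. NEDD4L, a ubiquitin ligase that acts on activated SMADs, also rose in each line versus EV. It was at 32.8, 32.5 and 33.7 CPM in EV, 62.9 to 67.5 CPM in EHF (log2 fold change 0.97, SE 0.11, adjusted p = 0.00962), 259 to 340.3 CPM in CDX1 (3.12, SE 0.12, adjusted p = 6.55e-09) and 67.5 to 78.9 CPM in EHF+CDX1 (1.16, SE 0.11, adjusted p = 5.89e-04). The co-repressor SKIL rose in CDX1 versus EV (3.50, SE 0.28, adjusted p = 1.14e-06), and the small phosphatase CTDSP1, which removes phosphate from SMADs, fell there (-2.27, SE 0.18, adjusted p = 2.51e-06).

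Further BMP response genes moved in both directions, and 8 of 9 passed the filter. Versus EV, 1 rose and 2 fell in EHF, 3 rose and 3 fell in CDX1, and 2 rose and 3 fell in EHF+CDX1. The shares of all genes that rose and fell were 5.67% and 2.64% in EHF, 21.3% and 23.2% in CDX1, and 7.3% and 3.1% in EHF+CDX1. ID4, the fourth ID gene, was at 2.67, 3.55 and 2.57 CPM in EV and fell in EHF (log2 fold change -3.13, SE 0.34, adjusted p = 1.33e-04), in CDX1 (-1.62, SE 0.31, adjusted p = 0.00311) and in EHF+CDX1 (-2.80, SE 0.34, adjusted p = 2.49e-04). The call of ID4 in CDX1 was lost on the deposited log2 RPKM values (adjusted p = 0.0905). ATOH8, a basic helix-loop-helix factor induced by BMPs in other cells, fell from 2.04 to 3.45 CPM in EV to at most 0.483 CPM in every other library (log2 fold changes -3.12, -4.88 and -2.94 in EHF, CDX1 and EHF+CDX1). Its adjusted p-values were 7.43e-04, 8.51e-06 and 9.66e-04. ATOH8 would not have passed the count filter without its EV libraries, where it was high, and was named for its large change. These p-values are therefore a description and no separate support for the fall. DLX3, a homeobox gene, fell in CDX1 (adjusted p = 7.91e-04) and in EHF+CDX1 (adjusted p = 0.0144), with 0 to 9 and 1 to 20 reads in those libraries. Its call in EHF+CDX1 (log2 fold change -3.13) was lost without EHF+CDX1 library 2 and without EHF+CDX1 library 3 (adjusted p up to 0.0834), and with libraries left out the value ranged from -4.45 to -2.65. DLX3 too would not have passed the count filter without its EV libraries, so the same limit holds for its p-values. MSX1, a homeobox gene known as a BMP target, was picked after its values were seen because it went the other way, and it rose in EHF (1.46, SE 0.20, adjusted p = 0.00255), CDX1 (2.72, SE 0.21, adjusted p = 1.18e-06) and EHF+CDX1 (1.52, SE 0.20, adjusted p = 0.00146) versus EV. MSX2 also rose in CDX1 and in EHF+CDX1 versus EV, and HEY1 rose in CDX1 versus EV.

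In the TGF-beta arm, CCN2, which encodes a matricellular protein, rose in CDX1 (4.90, SE 0.61, adjusted p = 3.87e-05), while the values of 1.31 in EHF (SE 0.56, adjusted p = 0.400) and 1.64 in EHF+CDX1 (SE 0.56, adjusted p = 0.172) did not pass. Without EV library 3 the value in CDX1 was 6.71, and CCN2 passed in EHF (3.12) and EHF+CDX1 (3.44). In that library it was at 8.42 CPM against 0.818 and 1.47 CPM in the other EV libraries. TGFBI, an extracellular matrix protein gene, had 0, 1 and 2 reads in EV, 0 in each EHF library, 2 to 11 in CDX1, and 1388, 1157 and 347 in EHF+CDX1 (23.4 CPM). The ratio of its pooled reads in EHF+CDX1 to EV was 765 (exact 95% interval 262 to 3713) and rests on 3 EV reads. The interval covers counting error in the pooled reads only and is not a test. TGFBI and GREM1 were higher in the line with both factors than in the others, where both were near the detection limit. Both passed the count filter only through that line and were named for their large change, so this difference follows in part from the choice. GREM1 stayed at a low level in that line, with a mean of 3.26 CPM. The E protein genes TCF3 and TCF12, whose products are bound by ID proteins, passed in no comparison with EV.

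**Figure D5:**
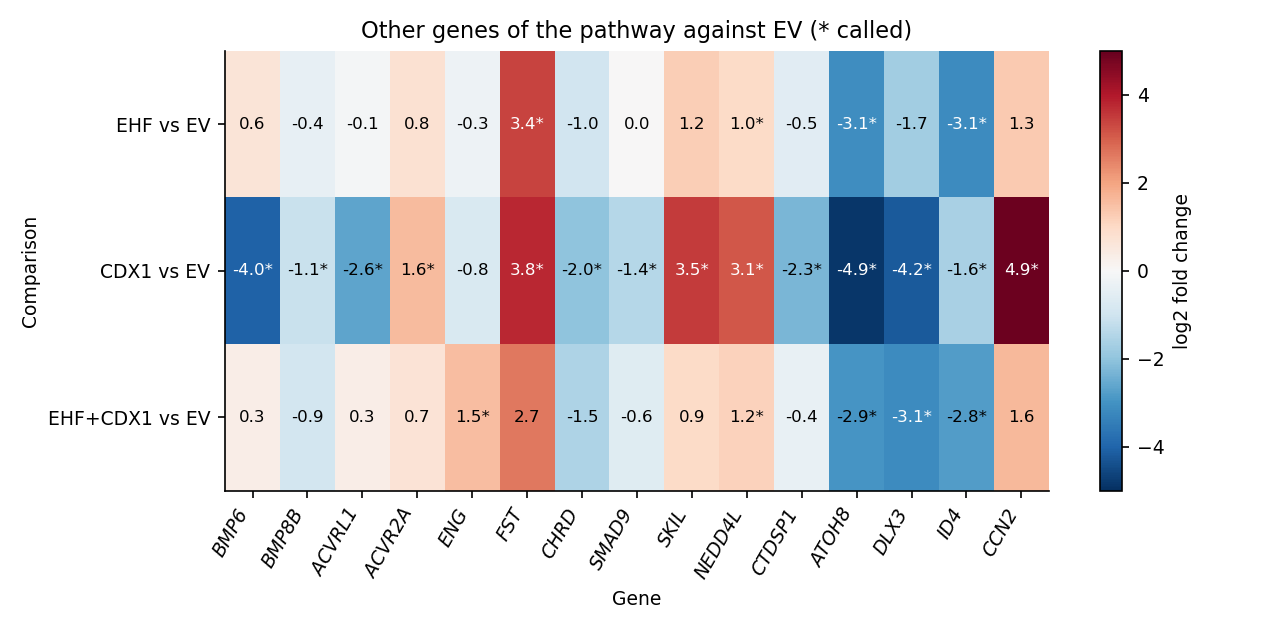
Log2 fold changes against EV (colour and printed values) of 15 named pathway genes (columns) in the 3 lines (rows), where an asterisk marks a gene that passed the test against a 1.5-fold change; GREM1 and TGFBI are left out because of their EV levels of 0 to 2 reads. The genes were picked among those called against EV, so the number of asterisks follows from the choice. ID4, ATOH8 and NEDD4L carry one in all 3 lines, and ATOH8 and DLX3 passed the count filter only with their EV libraries.

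The genes most like BMP4 in their log2 CPM over the 12 libraries were UPK3B (Pearson r = 0.983), GCNT3 (0.977) and PGAP6 (0.975). Their mean levels in EV, EHF, CDX1 and EHF+CDX1 were 16.1, 1.26, 1.68 and 1.82 CPM for UPK3B, 29.5, 3.08, 6.20 and 5.51 CPM for GCNT3, and 122, 55.7, 63.3 and 58.8 CPM for PGAP6. The genes most like BMP2 were TRIM11 (0.977), ZNF142 (0.972) and LRRC37B (0.971). Their means in the same order of lines were 55.3, 53.9, 83.8 and 70.5 CPM for TRIM11, 61.7, 56.2, 88.5 and 72.0 CPM for ZNF142, and 5.49, 4.98, 8.16 and 6.20 CPM for LRRC37B. BMP2, with 0 or 1 reads per EV and EHF library, differed between lines by far larger folds. The 12 points are 4 lines with 3 libraries each, so these correlations mainly compare 4 line means and are given as a description.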

How the data were processed

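Poly(A) RNA of 12 libraries was prepared with a directional kit and sequenced. The authors aligned reads to GRCh38/hg38 with Subread (2.0.0 in the submitters' processing notes), and deposited raw counts per RefSeq gene from featureCounts (2.0.0); the strand setting is not given in the sources used here. The authors also deposited log2 RPKM values, made with a CPM filter, limma voom and quantile normalisation.

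The analysis of the counts used edgeR 4.0.16 (R 4.3.3). The filter on CPM (0.5 in 3 libraries or more) left 15853 genes and removed 0.0585% of counts. TMM factors were 0.799 to 0.845 in CDX1 and 0.973 to 1.09 elsewhere. One quasi-likelihood model with a term for line covered the 12 libraries. A gene rose or fell where glmTreat, with a null of 1.5-fold, gave p under 0.05 after Benjamini-Hochberg adjustment over all genes, and adjusted p-values are from this test unless stated. Log2 fold changes and SE are from the quasi-likelihood F test. The 95% intervals of log2 fold changes use a normal approximation with that SE, so they are narrower than the F test implies. CPM values are TMM-normalised.

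The members and lists were chosen with earlier results of these data known. Named pathway genes were up to 3 per list with the largest change against EV among those called against EV, of which 1 is not reported here; genes like BMP2 and BMP4 were sought among those with mean log2 CPM of 1 or more, with a prior count of 2. The scripts were tested on simulated data. Alternatives were other scalings, no count filter, DESeq2 1.42.0, limma 3.58.1 on voom and on deposited values, a replicate block, fewer lines and leaving out each library. Positions are from RefSeq GRCh38.p14.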

Additional observations from a re-analysis of the deposited data

Results flagged for a closer look

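The difference between lines with and without the EHF plasmid was unlike in the CDX1 and the EV background, by the edgeR test of that contrast itself, for 5 of the 7 genes tested. The lines are separately selected clones, from which EHF cannot be told apart. On the log2 scale the difference was 3.33 for SMAD6, 1.51 for ID1, 1.36 for ID3, 1.36 for BAMBI and 1.31 for BMP7. The same contrast equals EHF+CDX1 versus EHF minus CDX1 versus EV. These are the 5 genes that fell in CDX1 versus EV, so the calls are not separate from those falls.

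For BMP4 the difference was 4.57 and was not tested, because the gene was chosen for its fall. Every EHF library was below every EV library (36.5 to 39.9 against 739.5 to 859 CPM), while every EHF+CDX1 library was above every CDX1 library (75.6 to 86.0 against 64.2 to 74.4 CPM). The first log2 fold change was -4.34, a fall of the kind the gene was chosen for. The second was only 0.23. It was 0.58 with library size only, 0.46 with limma voom and 0.47 on the deposited log2 RPKM values.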

How the results depend on the processing

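The counts of called genes among the 7 kept within 1.5 times of the reported value in every alternative but the test against no change, which called 7 in EHF versus EV and 7 in EHF+CDX1 versus EV (6 falls and 1 rise, BMP7, in each) and 1 in EHF+CDX1 versus EHF. Leaving out libraries gave 3 to 5 calls in EHF versus EV, 4 to 5 in EHF+CDX1 versus EV, and the reported count in the other comparisons. Of all genes, the test against no change called 4730, 10897, 5288, 1530, 10631 and 9250 in place of 1317, 7062, 1649, 422, 6485 and 6042 (EHF, CDX1 and EHF+CDX1 versus EV, EHF+CDX1 versus EHF and versus CDX1, and the difference). Fitting the lines compared alone called 845 in EHF versus EV and 787 in EHF+CDX1 versus EHF, and without EV replicate 3 these were 2063 and 649.

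Changes of sign were seen in values that passed no test, and the cause was not tested. They were SMAD9 in EHF versus EV (limma voom -0.054, log2 RPKM -0.074, left-out libraries -0.054 to 0.093), ACVRL1 (-0.39 to 0.59) and ENG (-0.63 to 0.37) in EHF versus EV with left-out libraries, and SMAD7 in CDX1 versus EV (log2 RPKM 0.017, left-out libraries -0.42 to 0.062). In EHF+CDX1 versus EHF, BAMBI ranged from -0.23 to 0.061 and SMAD7 from -0.033 to 0.10 with left-out libraries. The difference between backgrounds for ID2 was 0.15 with library size only, 0.11 with limma voom, 0.10 on log2 RPKM and -0.32 to 0.12 with left-out libraries, and for SMAD7 it was -0.011 on log2 RPKM and -0.014 to 0.45 with left-out libraries. The library-size scaling also gave a call for BMP7 in EHF+CDX1 versus EV (0.84). The fold change of BMP2 in EHF+CDX1 versus CDX1 was -4.66 with limma voom, and rests on 8 to 61 reads per EHF+CDX1 library.

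Replicate numbers did not pair the libraries: of 18 same-number pairs 0 had a correlation of deviations over 0.1 (-0.07 to 0.08), and in 6 of these 18 comparisons the library correlated best with its own number. With the replicate block, 42 of 42 values of the 7 genes kept direction and call, so it changed no call among them. Among the other named genes it removed the call of GREM1 in EHF versus EV.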
